A study of Mus musculus with 10 samples.

Results

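The genes described here are 9 genes of the liver X receptor (LXR) pathway of cholesterol export, out of 23284 features measured in the mouse colorectum. They were chosen by gene name, as the rows whose symbol is Nr1h3, Nr1h2, Abca1, Abcg1, Abcg5, Abcg8, Mylip, Lpcat3 or Apoe, with earlier results of these data already known. Among those results, the difference of Abcg1 between the groups NC-miR day 4 and NC-miR day 2 stood out. The values of that comparison are therefore descriptions, given without a test for any of the 9 genes. Its errors and intervals show only the spread between libraries. Each of the 9 was found, and 9 of 9 passed the filter on low values that 13051 of the 23284 features passed.

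LXRs are nuclear receptors that bind oxysterols, oxidised forms of cholesterol, and pair with retinoid X receptors on DNA. When a cell holds much sterol they switch on genes that export cholesterol to lipoproteins, return sterols to the gut lumen and limit uptake of lipoprotein cholesterol. A second system, driven by the transcription factor SREBP2, does the opposite: it raises cholesterol synthesis and uptake when membrane sterol is low. In the gut the LXR target genes work in epithelial cells, which absorb and secrete sterols, and in macrophages, which clear lipid from engulfed cells.

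RNA was sequenced from 10 libraries of colorectum from BALB/c mice aged 7 weeks, in 5 groups of 2. Normal mice were untreated, with tissue taken on day 0. The other 4 groups were given 2% dextran sodium sulfate (DSS), a sulfated polysaccharide that provokes colitis, and a microRNA carried by super carbonate apatite (sCA), a particle for delivering nucleic acids, through the tail vein on days 1 to 3. The carried RNA was the negative control NC-miR in 2 groups, collected on day 2 and on day 4, miR-29a in the fourth group and miR-29b in the fifth, both collected on day 4. For the mice collected on day 2 the labels state injections up to day 3, a contradiction that the sources used here do not settle. All the injected groups thus shared DSS and sCA, and normal mice had neither, so DSS, the injections and the day cannot be told apart in a comparison with normal. The labels do not say how many mice gave each library, so p-values measure the spread between libraries, which may be technical. Whole tissue was used, in which fewer cells of a type and less RNA per cell cannot be told apart.

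Every value below is a log2 ratio to a baseline of the same gene, as deposited, so 1 unit is a factor of 2 between libraries and levels of different genes cannot be compared. Low values had been raised to a floor, and 12680 to 12940 features per library lay above it. No read counts were used here and depth is unknown. Of 10 absorptive colonocyte markers, which define the labelled tissue, 10 were measured, with 1 at the floor in each normal library and 0 in the others. The NC-miR day 4 replicate 1 library stood apart in squamous epithelium markers, whose mean over 4 tested genes of 9 listed was 3.40, against -0.86 to 0.19 in the other 9 libraries. Krt4, Sprr3 and Trp63 lay at the floor in all 10 libraries. Differences that rest on that library are also given without it.

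The injected RNAs are shown because they define the groups. The labels name no arm of the precursor, and the 3p arms of both miRNAs, from RefSeq on build GRCm38.p6, are printed with the seed, bases 2 to 8, in capitals. Mature miR-29a-3p lies at chr6:31062673-31062694 on the minus strand, and a genomic copy of miR-29b-3p at chr1:195037091-195037113 on the plus strand.
mmu-miR-29a-3p: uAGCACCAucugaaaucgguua
mmu-miR-29b-3p: uAGCACCAuuugaaaucaguguu
Both carry the same seed, AGCACCA. Its complement TGGTGCT was searched in the longest annotated 3′ UTR of each gene (GENCODE M21). It was found in 1 of the 9 genes, Abcg5, at position 182 of a UTR of 254 bases, compared with 13% of 20979 genes.
Abcg5 3′ UTR site: cttgtggggcaatgTGGTGCTt
The capitals mark the letters complementary to the seed. A match of letters is a description and not a measured site.

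LXR binds a direct repeat, called DR4, of AGGTCA, 4 free bases and AGGTCA. The repeat, with at most 3 mismatches in its 12 fixed bases on either strand, was searched from 250 bases before to 50 after each RefSeq start site. Of the 8 genes with such a window, 1 held it: Abca1. The same search matched 24.5% of 27025 genes (21.9% of 32851 promoters), and the share among these 8 genes was not above that of all genes. The RefSeq span of Abca1 ends at 53159988, so the matching stretch lies within that span and is upstream only of the start site searched. The stretch, at chr4:53159925-53159984 on the minus strand (GRCm38.p6), is shown because Abca1 is the best known LXR target, with the repeat in capitals.
Abca1 promoter: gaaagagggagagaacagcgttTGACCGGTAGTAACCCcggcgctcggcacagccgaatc
Read on the other strand the repeat is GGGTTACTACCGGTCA, with 3 mismatches and an offset of -67 from the start site.

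Across the 7 comparisons other than the one used in choosing the genes, limma called 1 of the 9 genes in 1 comparison. Calls had a Benjamini-Hochberg adjusted p under 0.05 over all 13051 features. The gene called was Abcg1, which fell in miR-29b mice relative to normal. Comparisons with an NC-miR group share libraries with the one used in choosing, and all share its estimate of the spread. They are therefore not independent of the choice. In NC-miR day 2 against normal, 0 of 9 were called (3 at an unadjusted p under 0.05), with 1.22% of all features called. In NC-miR day 4 against normal, 0 of 9 were called (4 unadjusted), with 0.383% of all features called. For miR-29a against normal the count was 0 of 9 (4 unadjusted) beside 0.421% of all features. For miR-29b against normal it was 1 of 9 (5 unadjusted) beside 0.49%. In NC-miR day 4 against day 2, which was used in choosing the genes, 0.0153% of all features were called, and no count of the 9 genes is given. On day 4, 0 of 9 were called in miR-29a against NC-miR (3 unadjusted), 0 of 9 in miR-29b against NC-miR (1 unadjusted) and 0 of 9 in miR-29a against miR-29b (3 unadjusted). The share of all features called in each of those day 4 comparisons was 0%. At an unadjusted p under 0.05, 15.2%, 15.2%, 11% and 15.3% of all features passed in the comparisons with normal, in the order above. In the day 4 comparisons 7.63%, 12.5% and 7.43% did. With 2 libraries per group, a p that misses the threshold does not show that levels were the same.

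The 9 genes did not move together. Their median log2 difference from normal was 0.06 for NC-miR day 2, -0.56 for NC-miR day 4, -0.09 for miR-29a and -0.49 for miR-29b. The medians over all features tested were -0.06, -0.03, -0.02 and -0.03. In NC-miR day 4 mice, 8 of 9 values lay below normal and 1 above, and in miR-29b mice 6 lay below and 3 above. Of all features tested, 55.4% and 54.7% lay below normal in these groups. On day 4 the median of miR-29a against NC-miR was 0.10 and that of miR-29b against NC-miR 0.03, beside 0.02 and 0.02 over all features. Without NC-miR day 4 replicate 1 the median of the 9 was -0.49 for NC-miR day 4 against normal, 0.16 for miR-29a against NC-miR and 0.19 for miR-29b against NC-miR. By group mean, Abca1, Abcg1 and Mylip were lower in NC-miR day 4 and miR-29b than in the other 3 groups, whereas Abcg5 and Abcg8 were highest in normal. Below, libraries of 2 groups are often said not to overlap. Depending on the comparison, this held for 35.9% to 49.1% of all features, so it is common with 2 libraries per group.

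**Figure D1:**
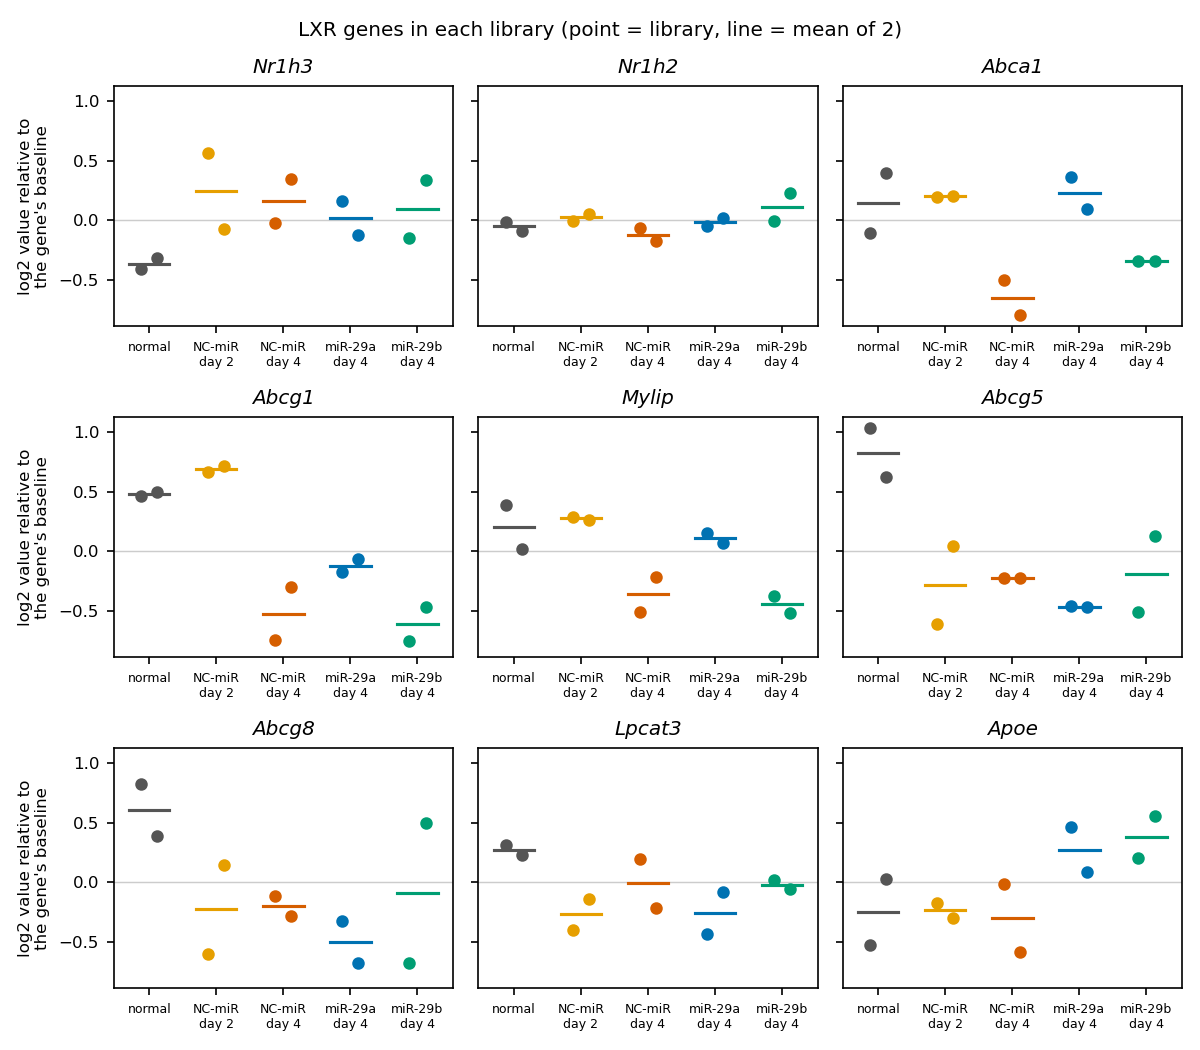
Deposited log2 value relative to the gene's own baseline (vertical axis) for the 9 genes in each of the 5 groups (horizontal axis); points are libraries and lines are means of 2. Abcg1 lies between 0.47 and 0.71 in normal and NC-miR day 2 libraries and at -0.06 or below in the 6 day 4 libraries, and both normal libraries lie above all 8 injected libraries for Abcg5.

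The receptors themselves were measured first. Nr1h3 (mm10 chromosome 2, 91184061 to 91202834) encodes LXRα, the form abundant in liver, gut and macrophages. Its values were -0.41 and -0.31 in normal, 0.56 and -0.07 in NC-miR day 2, -0.02 and 0.35 in NC-miR day 4, 0.16 and -0.12 in miR-29a, and -0.14 and 0.34 in miR-29b. Both normal libraries were the lowest of the 10, and the injected groups overlapped each other. The mean was 0.61 ± 0.25 (limma SE, n = 2 per group) above normal in NC-miR day 2, with a limma adjusted p = 0.309. The differences from normal were 0.52 in NC-miR day 4, 0.38 in miR-29a and 0.46 in miR-29b, with adjusted p from 0.370 to 0.659. Without the high NC-miR day 2 replicate 1 the difference for that group was 0.29, and without replicate 2 it was 0.92. Leaving out NC-miR day 4 replicate 1 gave 0.71 and replicate 2 gave 0.34 for NC-miR day 4. For miR-29b the 2 values were 0.70 and 0.22, and for miR-29a 0.24 without replicate 1.

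Nr1h2 (chromosome 7, 44549616 to 44553951) encodes LXRβ, the form present in most tissues. Its values ranged over 0.40 log2 units across the 10 libraries, the narrowest range of the 9 genes. They were -0.01 and -0.09 in normal, 0.00 and 0.05 in NC-miR day 2, -0.06 and -0.18 in NC-miR day 4, -0.05 and 0.02 in miR-29a, and -0.01 and 0.23 in miR-29b. The 5 group means differed by up to 0.23, within the largest gap of 0.24 between replicates of a group. Against normal, the 95% confidence intervals reached at most 0.46 upward (miR-29b) and -0.37 downward (NC-miR day 4).

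Of the cholesterol exporters, Abca1 (chromosome 4, 53030787 to 53159895) loads cholesterol and phospholipid onto lipid-poor apolipoprotein A-I. Its values were -0.11 and 0.40 in normal, 0.19 and 0.21 in NC-miR day 2, -0.50 and -0.80 in NC-miR day 4, 0.36 and 0.10 in miR-29a, and -0.34 and -0.34 in miR-29b. Both NC-miR day 4 libraries were the lowest of the 10 and both miR-29b libraries came next, with no overlap with the other 3 groups. By mean the order was miR-29a, NC-miR day 2, normal, miR-29b and NC-miR day 4. The first 3 lay within 0.08 of each other, less than the gap of 0.50 between the normal libraries.

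The Abca1 mean in miR-29a was 0.88 ± 0.19 above NC-miR on day 4, which is 1.84-fold, with a 95% confidence interval of 0.43 to 1.32 and a limma adjusted p = 0.443. Relative to miR-29b it was 0.57 ± 0.19 higher (interval 0.13 to 1.01, adjusted p = 0.665). The NC-miR day 4 mean was -0.79 ± 0.19 relative to normal (adjusted p = 0.126) and -0.85 ± 0.19 relative to NC-miR day 2. The miR-29b mean was -0.49 ± 0.19 relative to normal (adjusted p = 0.288), with -0.74 without normal replicate 1 and -0.23 without normal replicate 2. None of these passed the adjusted threshold. With the squamous-marker library (NC-miR day 4 replicate 1) left out, the difference between miR-29a and NC-miR was 1.02, that between NC-miR day 4 and normal -0.94 and that between the NC-miR days -0.997.

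Abcg1 (chromosome 17, 31057675 to 31117988) exports cholesterol to high-density lipoprotein and works after Abca1. Its values were 0.47 and 0.50 in normal, 0.66 and 0.71 in NC-miR day 2, -0.74 and -0.30 in NC-miR day 4, -0.17 and -0.06 in miR-29a, and -0.75 and -0.46 in miR-29b. The 4 normal and NC-miR day 2 libraries were above all 6 day 4 libraries. In NC-miR day 4 replicate 1 and miR-29b replicate 1, Abcg1 lay at the floor. Those 2 values are upper limits of the level. A mean difference of either group from a group above the floor is therefore understated if the level lay below the floor, and the difference between these 2 groups is bounded in neither size nor sign. In multiples of its floor, Abcg1 was at 2.30 and 2.33 in normal, 2.75 and 2.78 in NC-miR day 2, 1.39 in NC-miR day 4 replicate 2, 1.48 and 1.60 in miR-29a, and 1.21 in miR-29b replicate 2.

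**Figure D2:**
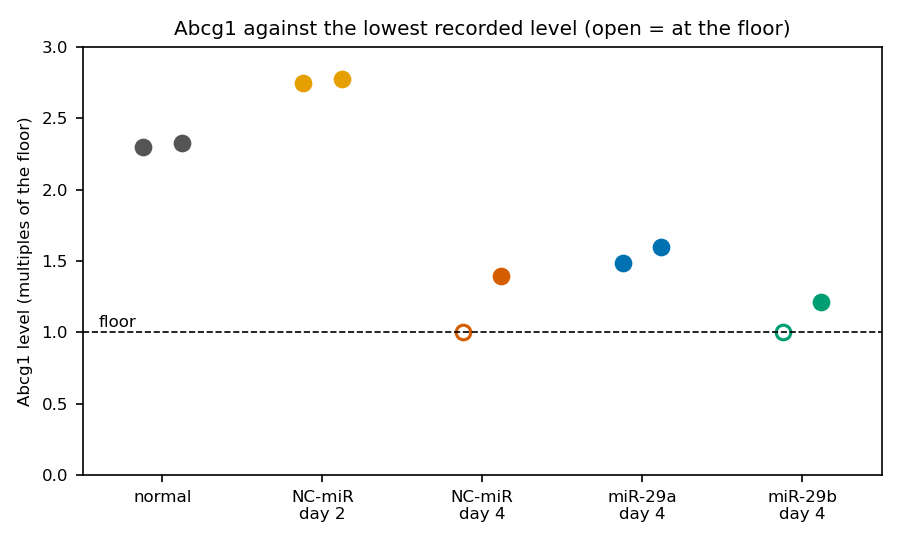
Abcg1 level as a multiple of the floor (linear vertical axis from 0) in each library of the 5 groups (horizontal axis); open points lie at the floor and are upper limits. The highest value, in NC-miR day 2, is 2.78 times the floor, and 1 of 2 libraries is at the floor in NC-miR day 4 and in miR-29b.

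In miR-29b mice Abcg1 fell by 1.09 ± 0.17 on the log2 scale relative to normal, or 2.13-fold (95% confidence interval -1.49 to -0.69, limma adjusted p = 0.0492, n = 2 per group). Both miR-29b libraries were below both normal libraries, and 46.6% of all features showed no overlap between these groups. The call was lost in 14 of 17 alternative fits, with adjusted p from 0.0384 to 0.266, and the differences ran from -1.23 to -0.95. Without miR-29b replicate 1, which lay at the floor, the difference was -0.95 with a limma adjusted p = 0.141. The NC-miR day 4 mean differed from normal by -1.002 ± 0.17 (adjusted p = 0.0625), and without replicate 1, at the floor, the difference was -0.78. The miR-29a mean was -0.60 ± 0.17 relative to normal (adjusted p = 0.256).

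Between NC-miR day 4 and day 2, the comparison known beforehand, the Abcg1 difference was -1.21 ± 0.17, or -0.99 without NC-miR day 4 replicate 1. On day 4 Abcg1 in miR-29a was 0.40 ± 0.17 above NC-miR (adjusted p = 0.650) and 0.49 ± 0.17 above miR-29b (adjusted p = 0.665). Both miR-29a libraries were above the 4 other day 4 libraries. Without NC-miR day 4 replicate 1 the difference between miR-29a and NC-miR was 0.18, with the remaining NC-miR library above the floor, and without replicate 2 it was 0.62. The miR-29b and NC-miR day 4 libraries overlapped, with a difference of -0.09 between means that each include a value at the floor, and -0.31 without NC-miR day 4 replicate 1.

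Abcg5 and Abcg8 encode partners that form a single sterol transporter, which returns plant sterols and cholesterol to the gut lumen and to bile. The genes lie on opposite strands of chromosome 17, Abcg5 at 84658234 to 84683011 and Abcg8 at 84676302 to 84700333, and overlap over 6710 bases. They share 40 exon bases. The library kit was stranded, but the strand setting of the counting is not given in the sources used here. How reads from that stretch were assigned is therefore unknown. Abcg5 was 1.04 and 0.62 in normal, -0.61 and 0.05 in NC-miR day 2, -0.22 and -0.22 in NC-miR day 4, -0.46 and -0.47 in miR-29a, and -0.51 and 0.13 in miR-29b. Both normal libraries were above all 8 others.

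The Abcg5 difference from normal was -1.11 ± 0.27 in NC-miR day 2, -1.05 ± 0.27 in NC-miR day 4, -1.29 ± 0.27 in miR-29a and -1.02 ± 0.27 in miR-29b. In fold terms the means were 2.03 to 2.45 times lower than normal. The limma adjusted p ran from 0.114 to 0.148, so none passed. These comparisons share the same 2 normal libraries. Among the injected groups the Abcg5 means lay between -0.46 and -0.19, closer together than the 0.66 between the NC-miR day 2 replicates. Abcg5, the only one of the 9 genes with a letter match to the miR-29 seed, differed from NC-miR on day 4 by -0.24 (interval -0.86 to 0.38) in miR-29a and by 0.03 (interval -0.59 to 0.65) in miR-29b.

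Abcg8 was 0.83 and 0.39 in normal, -0.60 and 0.15 in NC-miR day 2, -0.11 and -0.28 in NC-miR day 4, -0.32 and -0.67 in miR-29a, and -0.67 and 0.50 in miR-29b. Replicate 2 of miR-29b fell among the normal values, and the 2 miR-29b libraries were 1.17 apart, the widest gap between replicates for any of the 9 genes. The difference from normal was -1.11 ± 0.39 in miR-29a (adjusted p = 0.351), and -0.83, -0.81 and -0.70 in NC-miR day 2, NC-miR day 4 and miR-29b. It was -0.11 in miR-29b without replicate 1, -1.28 there without replicate 2, -0.46 in NC-miR day 2 without replicate 1, and -0.89 in NC-miR day 4 without replicate 1. Across the 10 libraries Abcg5 and Abcg8 followed each other with Pearson r = 0.93 and Spearman rho = 0.94, the highest of the 36 pairs. This is a description over libraries that share normal mice as their high end.

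B cell markers were also highest in normal. Their mean over 7 tested genes of 8 listed was 1.43 and 1.51 in the normal libraries and -0.87 to 0.68 in the 8 injected libraries. The 1 B cell marker that passed, Cxcr5, which guides B cells into follicles, fell by 1.82 ± 0.29 on the log2 scale in miR-29b relative to normal (limma adjusted p = 0.0486). Both of its miR-29b values lay at the floor, so the size depends on the height of the floor and its error may be too small. The part of lymphoid tissue in the Abcg5 and Abcg8 differences was not tested. Absorptive colonocyte markers, of the cells that carry the sterol transporter, had means of -0.49 and -0.26 in normal and 0.02 to 0.67 in the injected libraries, the reverse order. Of the 10 colonocyte markers, 2 rose in miR-29a and 2 in miR-29b relative to normal, and 0 in the other comparisons. Slc26a3, a chloride exchanger, rose by 1.34 ± 0.18 in miR-29a and 1.13 ± 0.18 in miR-29b relative to normal (limma adjusted p = 0.0294 and 0.0486).

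**Figure D3:**
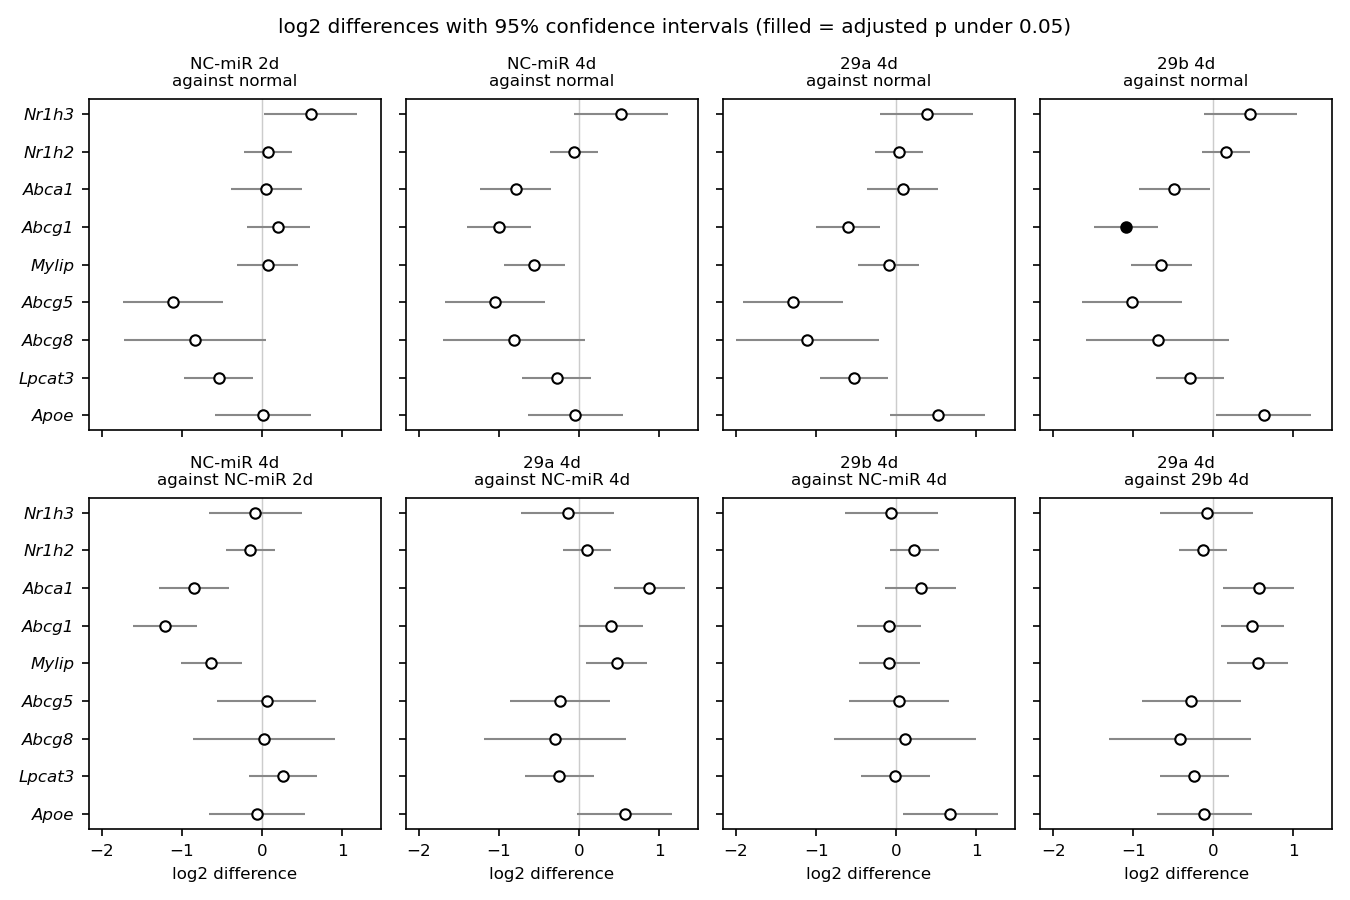
log2 differences between group means (horizontal axis) for the 9 genes (vertical axis) in each of the 8 comparisons, with 95% confidence intervals from limma; filled points have an adjusted p under 0.05. The single filled point is Abcg1 in miR-29b against normal at -1.09. The panel of NC-miR day 4 against day 2 was used in choosing the genes and is a description. Neither its intervals nor its open points are to be read as a test.

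Mylip (chromosome 13, 45389742 to 45412022) encodes IDOL, a ubiquitin ligase that limits the uptake of cholesterol in lipoproteins. Its values were 0.39 and 0.02 in normal, 0.29 and 0.27 in NC-miR day 2, -0.51 and -0.21 in NC-miR day 4, 0.15 and 0.07 in miR-29a, and -0.37 and -0.51 in miR-29b. The 4 NC-miR day 4 and miR-29b libraries were below the other 6. By mean the order was NC-miR day 2, normal, miR-29a, NC-miR day 4 and miR-29b. Neighbours among the first 3 differed by 0.07 and 0.09 and the last pair by 0.09, less than the gap of 0.38 between the normal libraries.

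The Mylip mean in miR-29a was 0.56 ± 0.17 above miR-29b (interval 0.18 to 0.94, limma adjusted p = 0.665) and 0.47 ± 0.17 above NC-miR on day 4 (adjusted p = 0.620). Relative to normal, miR-29b was at -0.65 ± 0.17 (adjusted p = 0.140) and NC-miR day 4 at -0.56 ± 0.17 (adjusted p = 0.185). The difference between NC-miR day 4 and day 2 was -0.64 ± 0.17. Without NC-miR day 4 replicate 1 the last 2 of these were -0.42 and -0.49, and the difference between miR-29a and NC-miR was 0.32. Without normal replicate 1, NC-miR day 4 was at -0.37 relative to normal.

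Mylip was the nearest of the 9 genes to Abcg1 over the 10 libraries, with r = 0.87 and rho = 0.79, and it was second among the 12132 features above the floor in all libraries. The 5 features with the highest r to Abcg1 were Kdsr (0.95), Mylip (0.87), Chodl (0.86), Arrdc4 (0.86) and Inca1 (0.86). To Abca1 the highest were Tcp11l2 (0.97), Sesn1 (0.96), Rhebl1 (0.90) and Inmt (0.90). Abca1 with Abcg1 gave r = 0.67 and rho = 0.72, and Abca1 with Mylip r = 0.68 and rho = 0.54. All of these rest on 10 libraries in 5 groups and are descriptions. They include the libraries of the comparison used in choosing the genes. For Abcg1 they also include the values at the floor, in NC-miR day 4 replicate 1 and miR-29b replicate 1.

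Lpcat3 (chromosome 6, 124663027 to 124704418) inserts polyunsaturated fatty acids into membrane phospholipids and supports lipid uptake in the gut. It shares 38 exon bases with Emg1 on the other strand. Its values were 0.32 and 0.23 in normal, -0.40 and -0.14 in NC-miR day 2, 0.20 and -0.21 in NC-miR day 4, -0.43 and -0.08 in miR-29a, and 0.02 and -0.05 in miR-29b. Both normal libraries were above all 8 injected libraries. The difference from normal was -0.54 ± 0.19 in NC-miR day 2 (limma adjusted p = 0.226) and -0.53 ± 0.19 in miR-29a (adjusted p = 0.352). For NC-miR day 4 and miR-29b it was -0.28 and -0.29. It was -0.49 in NC-miR day 4 without replicate 1 and -0.35 in miR-29a without replicate 1. Lpcat3 ran opposite to Nr1h3 over the libraries, with r = -0.78 and rho = -0.77.

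Apoe (chromosome 7, 19696109 to 19699188) encodes apolipoprotein E, a carrier that accepts exported cholesterol. Its values were -0.52 and 0.03 in normal, -0.17 and -0.30 in NC-miR day 2, -0.01 and -0.58 in NC-miR day 4, 0.46 and 0.08 in miR-29a, and 0.21 and 0.56 in miR-29b. The 4 libraries of mice given miR-29a or miR-29b were above the other 6, by a narrow margin. The nearest values were 0.08 in miR-29a and 0.03 in normal. On day 4 the difference from NC-miR was 0.57 ± 0.26 in miR-29a (interval -0.03 to 1.16, limma adjusted p = 0.674) and 0.68 ± 0.26 in miR-29b (interval 0.08 to 1.27, adjusted p = 0.378). Leaving out replicate 1 of NC-miR day 4 gave 0.85 for miR-29a and 0.96 for miR-29b, and leaving out its replicate 2 gave 0.28 and 0.39. The miR-29b mean was 0.63 ± 0.26 above normal (adjusted p = 0.304), and 0.35 without normal replicate 1.

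Macrophages are a main source of Apoe. The mean of 12 tested macrophage markers of 13 listed was 0.23 and 0.00 in miR-29a, 0.14 and -0.01 in miR-29b, 0.09 and -0.02 in NC-miR day 2, 0.14 and -0.35 in NC-miR day 4, and -0.29 and 0.00 in normal. Of these 12 markers, 0 passed the test. Those of smallest p were Aif1, at 0.67 ± 0.15 in NC-miR day 2 against normal (limma adjusted p = 0.0838), and Cd68, at 0.53 ± 0.18 in miR-29b against normal (adjusted p = 0.230). The part of macrophage content in the Apoe values was not tested.

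Other genes of the pathway were taken from lists. Of 11 tested partners and coregulators of LXR, 0 passed in any of the 8 comparisons. The smallest p belonged to Rxra, the retinoid X receptor that pairs with LXR, at 0.65 ± 0.19 in miR-29a against normal (limma adjusted p = 0.252), and to Gps2, a corepressor subunit, at 0.32 ± 0.13 in miR-29b against NC-miR day 4 (adjusted p = 0.386). Of 12 tested other LXR targets, 0 passed. Their medians relative to normal were 0.41 in NC-miR day 2, 0.33 in NC-miR day 4, 0.25 in miR-29a and 0.31 in miR-29b, with 11, 10, 11 and 11 of 12 above normal. Without NC-miR day 4 replicate 1 the median of that group was 0.15, with 8 of 12 above normal. Over the same comparisons the 3 genes Abca1, Abcg1 and Mylip were at or below normal except in NC-miR day 2, apart from Abca1 in miR-29a at 0.08.

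Among those other targets Fasn, the fatty acid synthase that SREBP1 drives, was at 0.76 ± 0.19 in miR-29b against normal (limma adjusted p = 0.136). Mertk, the receptor by which phagocytes take up dying cells, was 0.63 ± 0.16 higher in miR-29a than in miR-29b (adjusted p = 0.665). Its values were 0.48 and 0.38 in miR-29a and -0.15 and -0.25 in miR-29b. Of 7 tested enzymes that make or remove oxysterols, 0 passed. Sult2b1, which sulfates sterols and removes LXR ligands, was at 1.02 ± 0.17 in miR-29b against normal (adjusted p = 0.0582).

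The SREBP2 list of cholesterol synthesis lay mostly above normal in the injected groups. All of its 16 genes were tested. Relative to normal, 1 rose in NC-miR day 2, 2 in NC-miR day 4, 1 in miR-29a and 2 in miR-29b, and 0 fell. The medians were 0.49, 0.76, 0.68 and 1.00, with 14, 16, 16 and 16 of 16 above normal. Idi1, which isomerises the isoprenoid building block, rose in each, by 1.04 ± 0.14, 1.44 ± 0.14, 0.89 ± 0.14 and 1.24 ± 0.14 (limma adjusted p = 0.0162, 0.00749, 0.0499 and 0.0164). Lss, which closes the sterol ring, rose by 1.45 ± 0.22 in miR-29b (adjusted p = 0.0440), and Sc4mol, a methyl sterol oxidase, by 1.09 ± 0.17 in NC-miR day 4 (adjusted p = 0.0454). The counts depended on the fit, and no gene of the list was called in 5, 4, 14 and 5 of 18 alternatives, in the same order of groups. Without NC-miR day 4 replicate 1 the NC-miR day 4 median was 0.55, with 15 of 16 above normal and 0 called, so its Idi1 and Sc4mol calls were lost.

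The mean of the SREBP2 list was -0.41 and -0.46 in normal, 0.16 and 0.11 in NC-miR day 2, 0.50 and 0.17 in NC-miR day 4, 0.15 and 0.24 in miR-29a, and 0.47 and 0.44 in miR-29b. On day 4 the miR-29a median of the list was -0.17 relative to NC-miR and -0.30 relative to miR-29b. In each, 12 of 16 genes were lower and 0 were called (2 and 4 at an unadjusted p under 0.05). The unadjusted shares of all features were 7.63% and 7.43%. Without NC-miR day 4 replicate 1 the median relative to NC-miR was 0.01, with 7 of 16 lower.

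Among 14 tested genes of sterol uptake, trafficking and storage, 0 passed the limma test in NC-miR day 2, NC-miR day 4 or miR-29b against normal. At an unadjusted p under 0.05 the counts were 4, 4 and 3, beside 15.2%, 15.2% and 15.3% of all features. The medians were 0.08, 0.03 and 0.02. Of 12 other lipid ABC transporters tested, 0 passed. Abcg2, a urate and drug exporter of the gut, was at -0.73 ± 0.16 in NC-miR day 2 against normal (adjusted p = 0.0838), and Abcb1a, a drug exporter, at 0.68 ± 0.15 in miR-29a (adjusted p = 0.155).

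**Figure D4:**
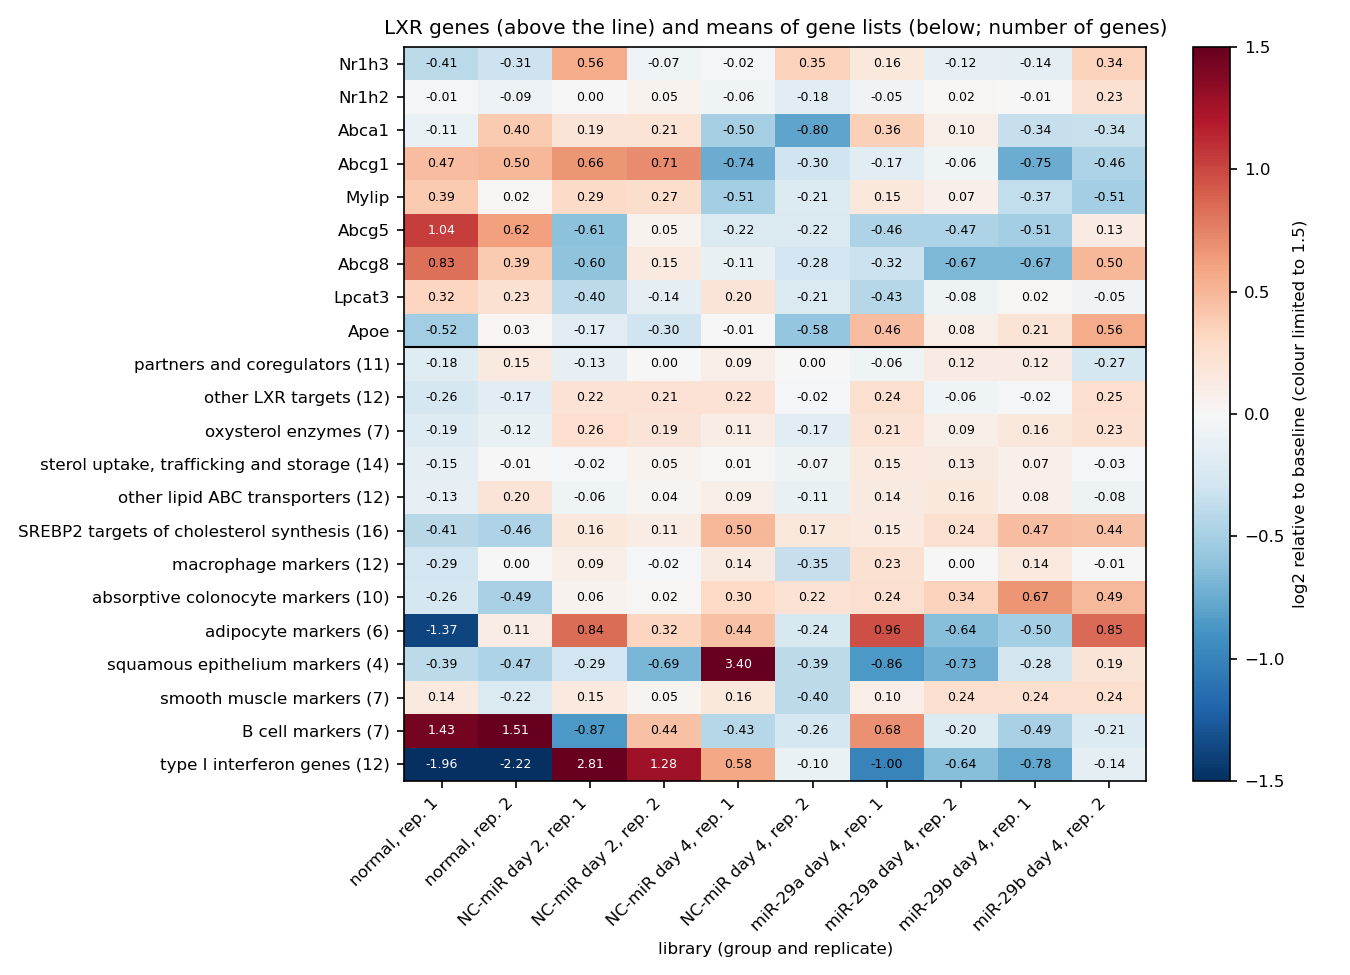
Deposited log2 values of the 9 genes (rows above the line) and means of the gene lists over their tested genes (rows below, number of genes in brackets) in the 10 libraries (columns); colour is limited to 1.5 units and each cell prints its value. Abcg5 and B cell markers are both highest in the 2 normal libraries, and SREBP2 targets are lowest there.

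Further lists were read beside the 9 genes. Type I interferon genes, 12 of 12 tested, had means of -1.96 and -2.22 in normal, 2.81 and 1.28 in NC-miR day 2, and -0.997 to 0.58 on day 4. Nr1h3 was highest in NC-miR day 2 replicate 1, the library with the highest interferon mean, and lowest in normal. In NC-miR day 2 replicate 2, with an interferon mean of 1.28, Nr1h3 was at -0.07. It was at 0.35 in NC-miR day 4 replicate 2 and 0.34 in miR-29b replicate 2, with interferon means of -0.10 and -0.14. Of the 12 interferon genes, 9 rose in NC-miR day 2 relative to normal, Ddx60, Oasl2, Bst2 and Isg15 among them. Against normal, 5 rose in NC-miR day 4, 2 in miR-29a and 2 in miR-29b. Of the 4 tested squamous markers 0 passed. Smooth muscle markers, 7 of 7 tested, had means from -0.40 to 0.24, and 0 passed. Adipocyte markers, 6 of 7 tested, had means from -1.37 in normal replicate 1 to 0.96 in miR-29a replicate 1, with 0 passing. The part of these cell types and of interferon in the values of the 9 genes was not tested.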

How the data were processed

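Per the labels' protocols, total RNA was taken with a column kit and libraries were made with a stranded mRNA kit. The submitters' processing notes name Cuffnorm 2.2.1, SAMtools 0.1.19, Bowtie2 2.2.3 and TopHat2 2.0.13 on build mm10, without settings. Although the file headers name the column FPKM, the authors deposited log2 values relative to a gene-specific baseline. The base was read from the rounding of the values. With base 2, 99.5% of 5890 distances from the floor matched numbers of 6 significant digits in 9 libraries (19.7% with base e, 21.9% with base 10, tolerance 0.1 of a step). The design had foreseen log2 values or FPKM, and the log2 branch was used. A feature was at the floor where 2 or more libraries shared its lowest value. Tests covered features with some group whose 2 libraries both exceeded the floor, without further normalization.

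limma 3.58.1 in R 4.3.3 fitted 5 group means to 10 libraries (5 residual and 3.26 prior degrees of freedom). Tests were 2-sided with Benjamini-Hochberg adjustment and calls under 0.05. Errors are limma standard errors. The fit was tested on simulated data. The day of each NC-miR library was taken from the sample titles. Genes and lists were chosen with earlier results of these data known. Named list genes were those called (up to 4 of smallest p), otherwise the 2 of smallest p, and some are not reported here. The features most like Abcg1 and Abca1 were the 5 of highest r, omitting provisional symbols and a symbol turned into a date. Coordinates are from GENCODE M21 on mm10.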

Additional observations from a re-analysis of the deposited data

How the results depend on the processing

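Leaving aside NC-miR day 4 against day 2, 409 alternative values were computed for 23 differences of the 9 genes with an unadjusted p under 0.05. Of these, 395 kept the direction and the side of the threshold, 14 kept the direction and lost the call, and 0 reversed. All 14 belong to Abcg1 in miR-29b against normal, the only called difference of the 23. For the others, keeping the side of the threshold means only that they stayed uncalled. The count of the 9 genes called in miR-29b against normal was 1. It was 0 with a replicate block (adjusted p = 0.0532), with no filter (0.101), with libraries centred on their medians (0.0504), with quantile normalization (0.107), with a fit to the 4 libraries compared (0.106) and with each library's constant subtracted (0.0523), an alternative chosen after seeing the data. It was also 0 when only features above the floor in all libraries were tested, which removes Abcg1. Leaving out each library in turn gave 0 to 1, where the call held only without either NC-miR day 4 library. It also held with robust moderation (0.0483). In the other 6 comparisons tested the count was 0 under all alternatives. Replicate numbers did not pair the libraries, since correlations of same-numbered deviations ran from -0.29 to 0.12, and the block changed no other call of the 9 genes. Counts over all features moved more: 159 in NC-miR day 2 against normal (16 to 273), 50 in NC-miR day 4 (6 to 82), 55 in miR-29a (8 to 58), 64 in miR-29b (5 to 64, with 35 under the block), 2 in NC-miR day 4 against day 2 (0 to 94), and 0 on day 4 (0 to 3 for miR-29a and 0 to 4 for miR-29b against NC-miR, 0 to 2 between them). The lowest counts against normal came without normal replicate 2, and the 273 and 94 without NC-miR day 2 replicate 2. Of 864 alternative counts for the pathway lists, 804 stayed within 1.5 times. Most main counts of these lists were 0, and a 0 that stayed 0 is among the 804. The number of promoters with the repeat fell from 7189 to 993 with at most 2 mismatches. The pseudocount alternative was not run, since the values are not FPKM. Depth is unknown, and the floor limits what can be said of Abcg1.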
